A study of Arabidopsis thaliana with 12 samples.

Results

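Transposable elements are DNA segments that copy or move themselves within a genome, and plant genomes hold many of them, most densely around the centromeres. Plants keep them silent with DNA methylation: MET1 copies methylation at CG sites, CMT3 and CMT2 maintain it at other sites, and the remodeller DDM1 opens the packed chromatin to these enzymes. A minority of element-derived loci is nevertheless transcribed in healthy leaves, some because the element was taken over by the host as a gene, as in the MUSTANG family and CYTOSLEEPER.

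In the *Arabidopsis thaliana* count table, transposable elements and pseudogenes are the rows whose locus identifier ends in a dot and a number, such as AT2G05660.1. There were 3911 such rows among 33610, and 2780 of them had 0 counts in all 6 leaf libraries. The 213 rows described here were chosen by their counts: they had 30 or more counts summed over both genotypes. They were compared between wild type and *trm5-1*, row by row, by chromosome and by position along it. All 3911 loci were found in the RefSeq annotation of TAIR10.1, where 3909 carry the biotype pseudogene and 2 (MUG3 and MUG7) protein coding. A class could be read from a symbol or note for 20 of the 213 rows, and the other 193 rows are given by identifier alone, with no role.

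Both genotypes are in the Columbia background and were sampled as leaves at an age of 20 days, with 3 RNA-seq libraries per genotype numbered replicates 2, 3 and 4. Wild type is Col-0. The mutant *trm5-1* is homozygous for a T-DNA insertion in *TRM5* (AT3G56120), which encodes the methyltransferase that modifies the base next to the anticodon in several tRNAs. It is a single insertion line, so the loss of *TRM5* and any other difference between this line and the wild type seed stock cannot be told apart. A legend in the study's supplement gives seedlings in place of leaves for these libraries; the labels and the methods give leaves.

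Total counts per library ranged from 14954658 in wild type replicate 2 to 26927531 in *trm5-1* replicate 4. *TRM5* itself had 179, 643 and 526 counts in wild type (replicates 2, 3 and 4, the order used throughout) and 100, 72 and 110 in *trm5-1*, with a log2 fold change of −2.25 ± 0.31 (SE) and an edgeR adjusted p of 0.0226, so the labels and the targeted gene go together. Of 5 leaf mesophyll markers, all 5 were detected, but their summed level was 22714 to 40267 counts-per-million (CPM) in wild type and 8003 to 15955 CPM in *trm5-1*. Flower markers summed to 3.7 to 10.5 CPM in wild type and 1.03 to 1.45 CPM in *trm5-1*, root markers were at most 0.496 CPM, pollen and sperm markers at most 1.48 CPM with HTR10 and GEX2 at 0, and seed markers at most 0.187 CPM. In bulk leaves, fewer cells of a type and less RNA per cell cannot be told apart, and the part of these marker levels in the row differences was not tested. With 1 CPM added to damp low counts, 12 of the 213 rows were over 4-fold apart in replicates 2 and 3 of wild type, and replicate 4 lay between them in 11 of the 12. On the same scale *trm5-1* had 1 such row, with replicate 4 between the others. Over all 213 rows replicate 4 was the middle library in 130 for wild type. For *trm5-1* this number was 124. Libraries varying independently and alike would each be in the middle equally often. Wild type replicate 4 was fitted as 0.759 times replicate 2 plus 0.589 times replicate 3, in counts. The residual coefficient of variation (CV) was 0.176, against 0.0867 for counting noise (60 rows with 100 or more fitted counts). For *trm5-1* the weights were 0.263 and 0.551 and the CV 0.409 (49 rows). The independence of replicate 4, which the tests assume, was not tested.

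The sequences next to some rows show what kind of element they are. Retrotransposons with long terminal repeats (LTRs) copy themselves through RNA, and begin the DNA copy by pairing the 3′ end of a host tRNA with a site just inside the first LTR. A search for the complements of the 3′ ends of all annotated nuclear tRNA genes, with CCA added, covered 115 different motifs of 12 bases on both strands within 1000 bases of each row; it was designed after results of these data were known. The motif matched most often, the complement of a tRNA-Met end, was found at 37 of the 213 rows (17.4%), at 7.98% of the other 3698 dotted rows and at 0.560% of 28932 undotted genes. It was on the row's own strand at all 37 rows. A match describes the letters and does not show priming. The tRNA gene is printed here with the bases that the motif complements in capitals. The 3 rows with the motif that edgeR called higher in *trm5-1* (adjusted p under 0.05) are printed with the motif in capitals. They have 30 bases on either side of it (RefSeq, TAIR10.1, 5′ to 3′ on the row's strand).
AT1G42120, tRNA-Met, chr1:15730615-15730686, minus strand: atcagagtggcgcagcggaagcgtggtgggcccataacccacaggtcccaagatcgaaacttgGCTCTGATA
AT3G60170.1, chr3:22232389-22232460, plus strand: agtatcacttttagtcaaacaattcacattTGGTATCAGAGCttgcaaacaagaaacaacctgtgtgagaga
AT5G35935.1, chr5:14088385-14088456, minus strand: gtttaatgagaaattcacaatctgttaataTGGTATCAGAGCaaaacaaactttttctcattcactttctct
AT3G28160.1, chr3:10495004-10495075, plus strand: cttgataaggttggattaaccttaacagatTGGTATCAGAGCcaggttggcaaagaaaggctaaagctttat

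Direct repeats were then searched as 2 copies of at least 100 bases and 80% identity in the same orientation, on either side of the row's midpoint and within 1000 bases of the row. Such a pair was found at 26 of the 37 rows with the motif (70.3%) and at 16 of the 176 rows without it (9.09%). In the 26 rows the copies had a median length of 235.5 bases and a median identity of 99.1%, and in 7 rows the copies were identical. In 22 of the 26 rows the motif began 0 to 10 bases after the end of the first copy, the place where LTR retrotransposons carry it. AT3G60170.1 had copies of 244 bases with 100% identity enclosing 4630 bases from end to end, and the motif began after 2 further bases. In LTR elements the first copy carries the promoter by known biology. Where transcription of this row begins was not measured. Its first copy is printed through the motif, and was picked because the row it precedes was counted almost only in *trm5-1*.
AT3G60170.1, chr3:22232173-22232430, plus strand: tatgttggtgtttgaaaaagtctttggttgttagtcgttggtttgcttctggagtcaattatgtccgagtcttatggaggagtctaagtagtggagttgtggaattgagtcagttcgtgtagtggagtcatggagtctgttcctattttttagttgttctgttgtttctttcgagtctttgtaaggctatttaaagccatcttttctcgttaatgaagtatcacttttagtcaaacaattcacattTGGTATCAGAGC

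**Figure D1:**
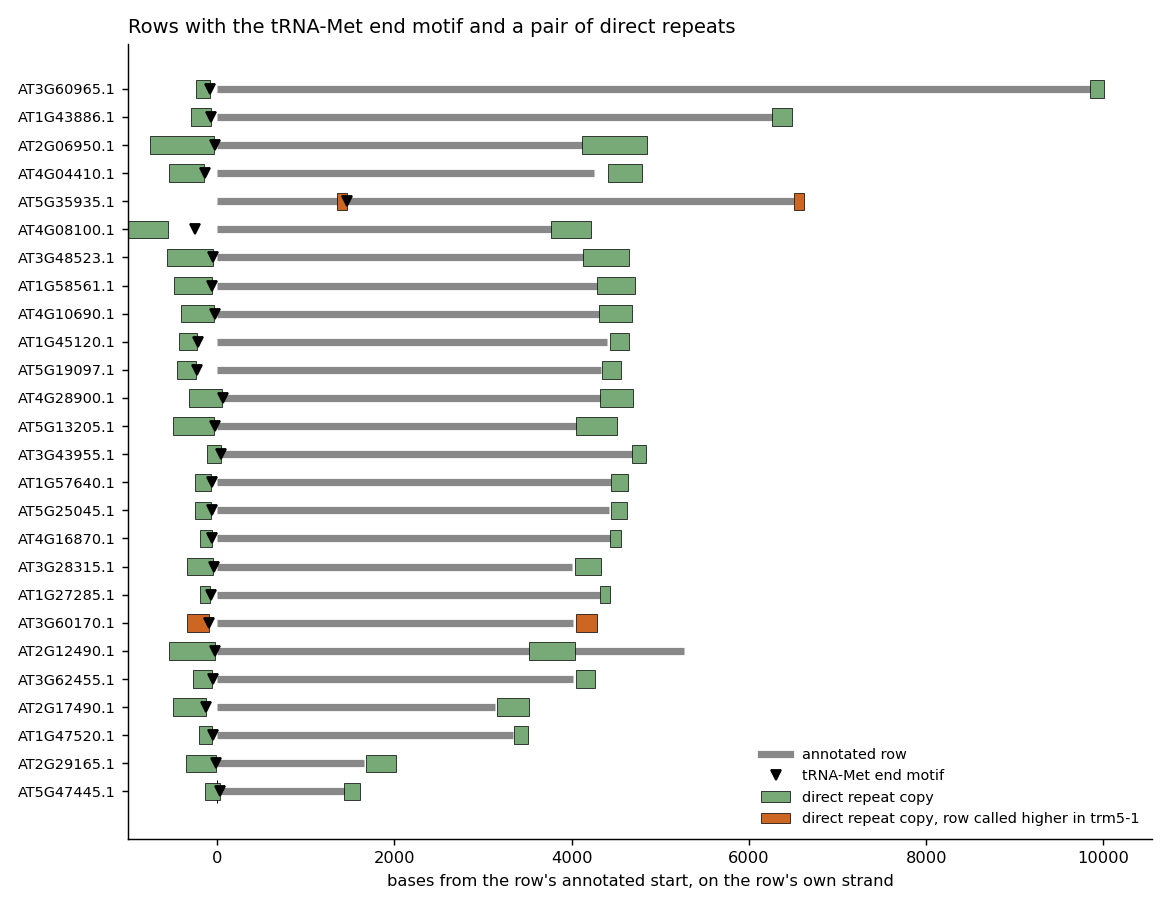
Map of the 26 rows that hold both the tRNA-Met end motif (black triangle) and a pair of direct repeats (boxes), drawn to scale in bases from each row's annotated start (grey line: the annotated row). In 22 rows the triangle sits 0 to 10 bases after the first box; the repeats of AT3G60170.1 and AT5G35935.1, both higher in *trm5-1*, are in orange.

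The 213 rows were not rare transcripts of 1 kind. Their summed counts ran from 30 to 33238 with a median of 207. AT2G11240.1 alone held 17.9% of all their counts, the 10 most abundant rows 48.2% and the 50 most abundant 83.4%. They had a median span of 2654 bases and a median longest open reading frame of 310 codons on the annotated strand, against 2034 bases and 179.5 codons in the other dotted rows. An undotted gene overlapped 19 of them, 4 on the same strand and 15 on the other, and reads of such pairs may be shared because the strand setting of the counting is not given in the sources used here. Another genomic copy at 98% identity or more covered over 50% of the span of 18 rows, whose counts are uncertain for that reason. Just inside the threshold were AT4G08113.1 with 30 summed counts and AT2G06550.1 with 31, and just outside were AT4G07850.1 and AT4G20365.1 with 29 each.

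Summed over the 213 rows, the genotypes overlapped. With CPM taken over library totals, wild type replicate 2 gave the rows 1094, replicate 3 gave 1398 and replicate 4 gave 1301, while the same replicates of *trm5-1* gave 1178, 1516 and 1331. The means were 1264 ± 155 (SD, n = 3) in wild type and 1342 ± 169 in *trm5-1*, a difference of 77.3 (exact two-sided permutation test, p = 0.6; 3 against 3 libraries cannot go below 0.1). The difference turned to −7.69 without wild type replicate 2 and to −9.71 without *trm5-1* replicate 3. By chromosome the ratio of *trm5-1* to wild type ran from 0.822 on chromosome 4 to 1.21 on chromosome 3, and the smallest exact permutation p, 0.1 on chromosome 5, is the least these libraries allow (5 chromosomes compared). Thus no difference in the total was detected between the genotypes.

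**Figure D2:**
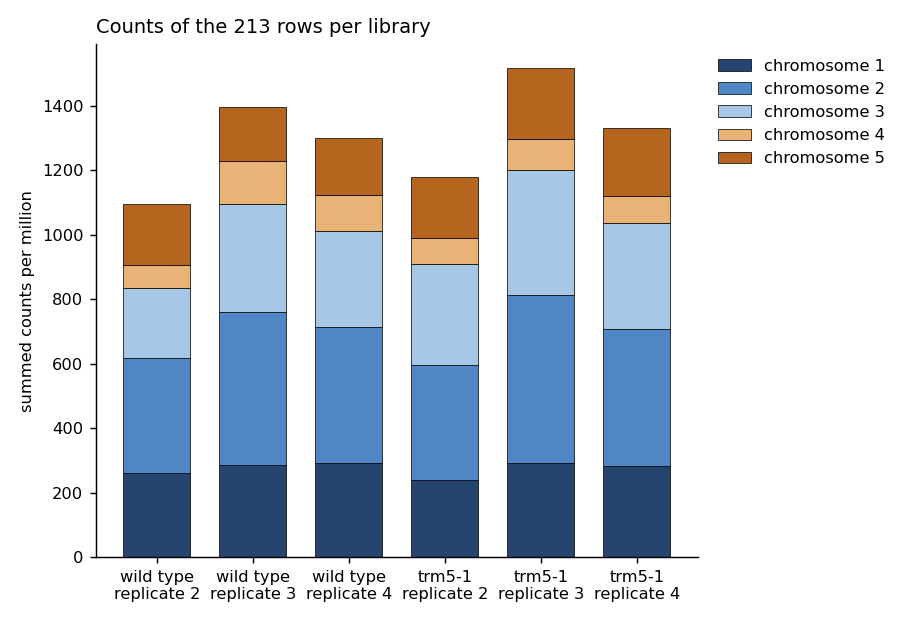
Summed CPM of the 213 rows, over library totals, in each of the 6 libraries, stacked by chromosome. Totals run from 1094 to 1516, and the 2 genotypes overlap.

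Row by row, 166 of the 213 rows passed the filter on low counts, and the 47 that did not had a median of 39 summed counts. Of the 166, 18 (10.8%) were called by edgeR at an adjusted p under 0.05, where 11.4% of all 19408 rows tested were. The called rows were 8 lower in *trm5-1* (4.82%, against 7.15% of all rows) and 10 higher (6.02%, against 4.30%). The called share was near the share of all rows. The rows' median level was below that of all rows (given below), and its part in the number of calls was not tested. The CPM values of the genotypes did not overlap in 62 rows (37.3%, against 39.7%), with 26 lower (15.7%, against 20.0%) and 36 higher (21.7%, against 19.7%), and 51 rows (30.7%) had an unadjusted p under 0.05, against 32.7%. The median log2 fold change was −0.03 over the 166 rows and −0.00 over all rows tested, and it was also −0.03 with the 2 rows at 0 in *trm5-1* set to their bounds. A log2 fold change over 1 in size was seen in 55 rows (33.1%, against 22.1%); the rows' median level was 2.34 CPM, against 14.7 CPM over all rows, and the part of this low level in the wider fold changes was not tested.

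Which rows passed the threshold depended on the libraries in the fit, while the 18 called rows kept the direction of their fold change in every alternative in which they were fitted. Without replicate 4 of both genotypes edgeR called none of 158 rows and 0 of all 19255 rows tested. An unadjusted p under 0.05 was seen in 12 rows (7.59%), against 8.94% of all rows. Without replicate 4 of wild type 0 of all 19626 rows were called. There 31 of 175 dotted rows (17.7%) had an unadjusted p under 0.05, against 20.0% of all rows. Without that of *trm5-1* 0 of all 20110 rows were called, and the shares were 29 of 183 (15.8%) against 21.0%. Without wild type replicate 2, 61 of 188 rows (32.4%) were called, against 37.6%, with 39 lower (against 21.5%) and 22 higher (against 16.2%), and all 18 rows of the full fit were among the 61. DESeq2 called 42 of 213 rows (19.7%), against 23.8%, with 24 lower (against 14.7%) and 18 higher (against 9.11%). With DESeq2 and without wild type replicate 2 too, the rows' called share stayed below the share of all rows. AT2G05660.1 had a log2 fold change of −11.85 and AT3G60170.1 of 9.98 without replicate 4 of both genotypes, where the edgeR adjusted p was 0.544 for each, and both were still called with any 1 library other than a replicate 4 left out.

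**Figure D3:**
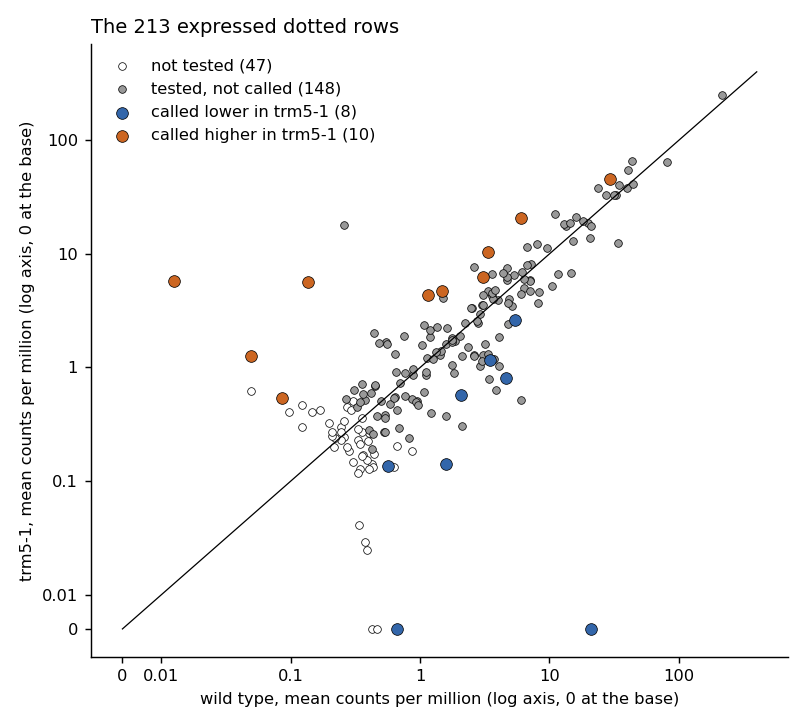
Mean CPM of each of the 213 rows in wild type (x) and *trm5-1* (y), both on log axes with 0 drawn at the base; the line marks equal levels. Of the 166 rows tested, 8 were called lower (blue) and 10 higher (orange) in *trm5-1*; white points were not tested.

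By the fitted log2 fold change, and against a floor of 3 counts, the largest change was the loss of AT2G05660.1, a row of 6579 bases with no class in the annotation (chr2:2108121-2114699, minus strand). The wild type libraries gave it 269, 619 and 575 counts, or 19.9, 21.9 and 21.5 CPM, and each *trm5-1* library gave 0. The 3 wild type libraries lay close together after scaling, with a mean of 21.1 ± 1.05 CPM. Against a floor of 3 counts in the smallest *trm5-1* library the level was at least 152-fold lower in *trm5-1* (edgeR adjusted p = 0.0106). The stretch around its annotated start is printed, with the row's first 50 bases in capitals after the 250 bases before it. Where transcription of this row begins was not measured.
AT2G05660.1, chr2:2114650-2114949, minus strand: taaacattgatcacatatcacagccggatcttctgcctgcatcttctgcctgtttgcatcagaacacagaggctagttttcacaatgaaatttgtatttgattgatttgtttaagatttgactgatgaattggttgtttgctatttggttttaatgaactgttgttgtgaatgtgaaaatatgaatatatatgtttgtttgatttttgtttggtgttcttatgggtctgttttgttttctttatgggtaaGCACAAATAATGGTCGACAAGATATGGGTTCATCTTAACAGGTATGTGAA
The only undotted gene tested within 20 kb of it was AT2G05632, 19937 bases away, with a log2 fold change of 0.84 and an edgeR adjusted p of 0.135.

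AT3G23085.1, of 1392 bases (chr3:8209764-8211155, minus strand), was the other called row at 0 in all *trm5-1* libraries. It had 7, 25 and 16 counts in wild type, a level at least 4.89-fold above the floor of 3 counts, with an edgeR adjusted p of 0.0288. A pair of rows too low to be tested were likewise at 0 in *trm5-1*: AT3G28315.1 had 1, 20 and 13 counts in wild type, and AT3G43715.1 had 0, 29 and 10. Both were low in wild type replicate 2, the smallest library, so these 2 patterns are less firm than that of AT2G05660.1.

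AT3G60170.1 showed the opposite pattern (chr3:22232512-22236531, plus strand). This row, between the identical repeats printed above, had 0, 0 and 1 counts in wild type and 102, 169 and 157 in *trm5-1*. Its single wild type count gives a ratio of 389 in summed counts per library total (95% exact binomial interval 69.4 to 15400, counting error only), and the edgeR adjusted p was 0.0107. It holds an open reading frame of 1339 codons over nearly its whole 4020 bases. No other copy at 98% identity covered any of its span. The undotted gene AT3G60164 overlaps all of it on the other strand and was also higher in *trm5-1*, with 3, 2 and 1 counts in wild type and 29, 26 and 31 in *trm5-1* (log2 fold change 3.60 ± 0.58, edgeR adjusted p = 0.0270), and since the strand setting of the counting is not known, reads of the pair cannot be assigned to 1 strand.

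AT5G35935.1 also carries the motif between direct repeats, which here lie inside and just beyond the end of the annotated row (chr5:14083388-14089891, minus strand). It had 0, 3 and 8 counts in wild type and 107, 141 and 166 in *trm5-1*. Every *trm5-1* library was above 5 CPM and no wild type library was above 0.299 CPM, with a log2 fold change of 5.14 ± 0.65 (edgeR adjusted p = 0.0199). AT3G28160.1, which holds the motif 378 bases into the row but no pair of repeats, had 70, 212 and 144 counts in wild type and 241, 825 and 519 in *trm5-1*. Its *trm5-1* libraries spread from 11.9 to 31.5 CPM, all above the wild type range of 5.19 to 7.51 CPM (log2 fold change 1.79 ± 0.38, edgeR adjusted p = 0.0404). Another genomic copy covered 31.9% of its span at 98% identity or more.

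Among the 34 tested rows with the motif, 3 were called higher and 0 lower by edgeR, where 4.30% and 7.15% of all rows tested were. The genotypes did not overlap in 13 of them, 11 higher and 2 lower in *trm5-1*, and 19 had a log2 fold change above 0 and 15 below. Of all rows tested, 39.7% did not overlap, 19.7% higher and 20.0% lower. Of the 132 tested rows without the motif, 7 were called higher and 8 lower, and the genotypes did not overlap in 25 higher and 24 lower. The median log2 fold change was 0.23 with the motif and −0.06 without it. No test of this difference was made, because the motif was chosen with the results known. Values differed widely between single motif rows: AT3G42806.1, the third most abundant of the 213, had 577, 1198 and 1190 counts in wild type and 1579, 1389 and 1786 in *trm5-1* (log2 fold change 0.60, edgeR adjusted p = 0.0689), while AT4G16870.1 went from 75, 283 and 236 counts to 94, 54 and 120 (log2 fold change −1.14, adjusted p = 0.10).

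Rows with no more than 3 counts per library in 1 genotype and 10 or more per library in the other were taken as counted in 1 genotype only; there were 4 (1.88% of 213), 3 in *trm5-1* and 1 in wild type. Among 20511 undotted genes with at least 30 summed counts the rule held for 0.307%, 55 in *trm5-1* and 8 in wild type. The rows were AT2G05660.1 in wild type and AT3G60170.1, AT3G29727.1 and AT5G35575.1 in *trm5-1*. A row silent in 1 genotype enters the 213 only through the other, and low rows meet the limit of 3 counts more easily than abundant genes, so the shares are given as a description. With the 10 raised to 30, AT2G05660.1 and AT3G60170.1 were left.

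AT3G29727.1 (chr3:11558897-11560688, minus strand) had 1, 0 and 2 counts in wild type and 29, 16 and 47 in *trm5-1*, a ratio of 27.9 in summed counts (95% exact binomial interval 9.24 to 138) with an edgeR adjusted p of 0.0309. The 2 loci next to it moved with it. On one side AT3G29730.1, also among the 213 but not tested, had 1, 0 and 2 counts in wild type and 17, 7 and 20 in *trm5-1*, though a copy at 98% identity covers 72.7% of it. On the other side the undotted gene AT3G29725, picked after its values were seen, had 4, 4 and 1 counts in wild type and 49, 19 and 43 in *trm5-1* (log2 fold change 3.44 ± 0.75, edgeR adjusted p = 0.0415). AT5G35575.1 had 2, 2 and 1 counts in wild type and 15, 11 and 12 in *trm5-1* (ratio 6.91, interval 2.71 to 22.5, edgeR adjusted p = 0.0404), and since near-identical copies cover 100% of its span its reads may come from another locus.

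**Figure D4:**
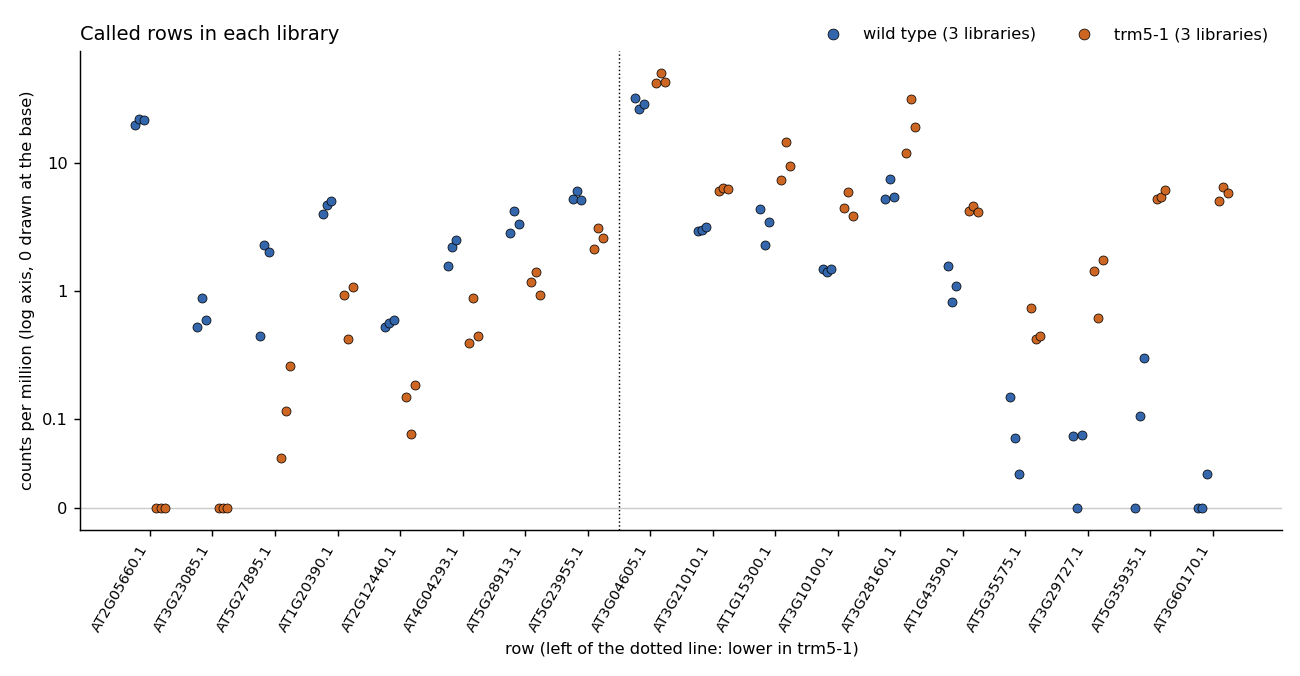
CPM of the 18 called rows in each library (log axis, 0 drawn at the base; blue, 3 wild type libraries; orange, 3 *trm5-1* libraries). Left of the dotted line are the 8 rows lower in *trm5-1*, right of it the 10 higher; the 2 genotypes do not overlap in any of the 18, and AT2G05660.1 and AT3G23085.1 are at 0 in *trm5-1*.

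Of the 20 rows with a known class, 18 were tested and 3 were called, where 11.4% of all rows tested were. MUSTANG genes descend from Mutator-like DNA transposons and have lost the ends needed to move. All 7 MUSTANG rows among the 213 were tested, 1 was called higher and 0 lower, and 5 of the 7 had a log2 fold change above 0. MUG1 (AT3G04605.1) had 437, 739 and 776 counts in wild type and 858, 1327 and 1160 in *trm5-1*, or 29.2 ± 3.10 against 45.3 ± 4.64 CPM (SD, n = 3). Its rise of 0.63 ± 0.15 on the log2 scale was the smallest among the 18 called rows (edgeR adjusted p = 0.0455). The genotypes did not overlap in MUG8 either (log2 fold change 0.29, edgeR adjusted p = 0.192). They overlapped in MUG2 (0.68, adjusted p = 0.242) and MUG6 (0.25, adjusted p = 0.358), whereas MUG3, MUG5 and MUG7 lay between −0.08 and 0.09. Summed over the 7 rows, MUSTANG took 113 ± 9.45 CPM in wild type and 139 ± 16.9 in *trm5-1*. The exact two-sided permutation test gave p = 0.1, the least these libraries allow.

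CYTOSLEEPER (AT1G15300.1), a host gene derived from an hAT-type DNA transposon, had 59, 65 and 92 counts in wild type and 150, 384 and 254 in *trm5-1*. Every *trm5-1* library was above every wild type library, at 7.38 to 14.6 against 2.30 to 4.37 CPM (log2 fold change 1.65 ± 0.36, edgeR adjusted p = 0.0411).

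SADHU elements are short retroposons without coding capacity, and their longest open reading frames here had a median of 56 codons. Of 9 SADHU rows, 7 were tested and 1 was called, lower in *trm5-1*. Log2 fold changes were below 0 in 5 of the 7 and above 0 in 2. The genotypes did not overlap in 2 of the 7, both lower, where 20.0% of all rows tested were. These were the called row and SADHU1-3 (AT5G28626.1, log2 fold change −0.35, edgeR adjusted p = 0.317). SADHU4-1 (AT5G28913.1, chr5:10933823-10934730) had 38, 120 and 89 counts in wild type and 24, 37 and 25 in *trm5-1*, with no overlap between 2.82 to 4.25 and 0.926 to 1.41 CPM (log2 fold change −1.56 ± 0.30, edgeR adjusted p = 0.0335). The undotted gene AT5G28910, 634 bases away on the same strand, had 36, 106 and 120 counts in wild type and 29, 31 and 31 in *trm5-1*, a log2 fold change of −1.54 ± 0.29 (edgeR adjusted p = 0.0333). By contrast SADHU1-1 (AT2G10410.1), the highest of the 213 rows per kb of exon at 40.6 CPM per kb, was at 44.1 ± 5.16 CPM in wild type and 41.3 ± 2.52 CPM in *trm5-1*, and the genotypes overlapped. Summed over the 9 rows, SADHU took 57.5 ± 12 CPM in wild type and 49.9 ± 0.582 in *trm5-1* (exact two-sided permutation test, p = 0.4).

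The other rows called lower in *trm5-1* have no class. AT1G20390.1, of 6068 bases, had 54, 133 and 135 counts in wild type and 19, 11 and 29 in *trm5-1* (log2 fold change −2.50 ± 0.39, edgeR adjusted p = 0.0255). AT5G27895.1 had 6, 64 and 54 counts against 1, 3 and 7 (log2 fold change −3.42 ± 0.79, adjusted p = 0.0447). Here wild type replicate 2, at 0.445 CPM, was far nearer to the *trm5-1* maximum of 0.259 CPM than the other wild type libraries were. AT2G12440.1 had 7, 16 and 16 counts against 3, 2 and 5, and AT4G04293.1 had 21, 62 and 67 against 8, 23 and 12, with log2 fold changes of −2.01 and −1.86. AT5G23955.1 had the smallest fall, from 5.45 ± 0.470 to 2.61 ± 0.506 CPM (log2 fold change −1.06 ± 0.23, adjusted p = 0.0418). These rows were lower in each *trm5-1* library than in any wild type library.

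The remaining rows called higher were AT3G10100.1, AT1G43590.1 and AT3G21010.1. AT3G10100.1 was steady in wild type, with 20, 40 and 40 counts or 1.42 to 1.5 CPM, and had 91, 155 and 104 counts or 3.85 to 5.91 CPM in *trm5-1* (log2 fold change 1.69 ± 0.26, edgeR adjusted p = 0.0248). AT1G43590.1, of only 507 bases, had 21, 23 and 29 counts against 86, 122 and 112 (log2 fold change 1.94 ± 0.30, adjusted p = 0.0257). AT3G21010.1 rose within narrow ranges: its 40, 84 and 85 counts in wild type came to 2.96 to 3.18 CPM and its 123, 168 and 170 counts in *trm5-1* to 6.05 to 6.41 CPM (log2 fold change 1.04 ± 0.18, adjusted p = 0.0299).

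The 10 most abundant rows had log2 fold changes from −0.31 to 0.63, where the median size over the 166 tested rows was 0.61. The part of their level in this was not tested. AT2G11240.1 was at 222, 208 and 214 CPM in wild type and 216, 293 and 244 CPM in *trm5-1*, and the genotypes overlapped (log2 fold change 0.23 ± 0.19, edgeR adjusted p = 0.440). Of the 10 rows with the highest mean CPM, MUG1 was the 1 that was called, where 11.4% of all rows tested were. Of all rows tested, 39.7% did not overlap between the genotypes. Among the 10, the genotypes did not overlap in MUG1, nor in AT3G42806.1 and AT1G80020.1, both higher in *trm5-1* with adjusted p of 0.0689 and 0.0834. They overlapped in the other 7. Of these, AT1G58561.1 had a log2 fold change of −0.31, AT3G43955.1 of 0.22 and SADHU1-1, AT1G35115.1, AT2G12490.1 and AT5G55896.1 between −0.10 and 0.06. AT1G58561.1 lies on the same strand within the undotted gene AT1G58602, so its counts are uncertain.

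Some rows varied more within a genotype than between the genotypes. AT2G04460.1 had 6, 2 and 7 counts in wild type and 2, 955 and 461 in *trm5-1*. Here *trm5-1* replicate 2 lay with wild type and the other 2 libraries far above (edgeR adjusted p = 0.0697). AT3G54823.1 had 1, 380 and 476 counts in wild type and 161, 197 and 3 in *trm5-1*, with a low library in each genotype. AT2G06950.1, whose flanking repeats of 732 bases are identical, had 106, 1598 and 992 counts in wild type and 239, 332 and 344 in *trm5-1*. On the log2(CPM + 1) scale the highest and lowest library of a genotype differed over the 213 rows by a median of 0.43 for wild type and 0.33 for *trm5-1*. These 3 rows were picked after their values were seen.

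Along the chromosomes, dotted rows were densest in 1 stretch of each, while transcribed ones were spread. In the 15 bins of 1 Mb where dotted rows outnumber undotted ones, 45 of 2232 dotted rows (2.02%) reached 30 counts, and in the other 102 bins 168 of 1679 (10.0%) did. Called shares were alike in both: 4 of 34 tested rows (11.8%, 3 lower and 1 higher) in the dense bins and 14 of 132 (10.6%, 5 lower and 9 higher) elsewhere. No bin of 1 Mb held 2 called rows, and with bins of 2 Mb 2 bins did. Chromosome 3 held 7 of the 18 called rows among 43 tested, 6 of them higher in *trm5-1*, against 10.9% of its undotted genes called. Chromosome 4 held 1 among 26, against 11.6%. It had the lowest median log2 fold change of the 5 chromosomes, −0.80, against 0.0026 for its undotted genes. Without overlap 7 of its tested rows were lower and 2 higher, where 20.0% and 19.7% of all rows tested were. Chromosomes 1, 2 and 5 held 3 of 32, 2 of 32 and 5 of 33, against 11.9%, 11.1% and 11.7% of their undotted genes.

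**Figure D5:**
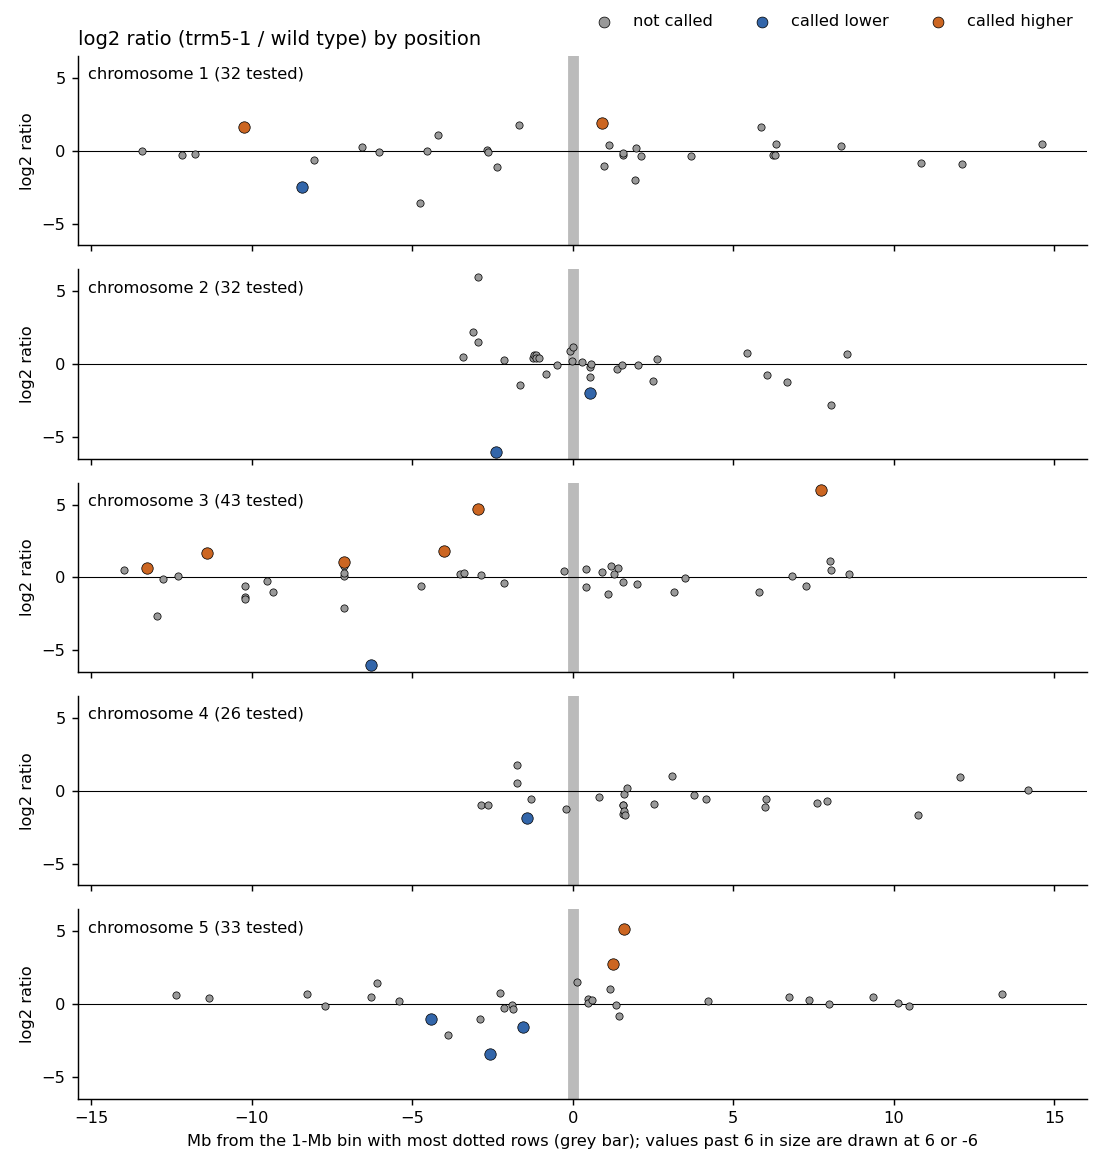
log2 ratio of *trm5-1* to wild type for the 166 tested rows against distance in Mb from the 1-Mb bin that holds most dotted rows on each chromosome (grey bar). Called rows (8 lower in blue, 10 higher in orange) lie on both sides of the bar, and chromosome 3 holds 7 of the 18.

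*TRM5* lies on chromosome 3, and the called row nearest to it was AT3G60170.1, 1.41 Mb away. The 2 rows closer than 0.52 Mb to *TRM5*, AT3G54823.1 and AT3G57586.1, were not called. The other 6 called rows of chromosome 3 were 9.26 to 19.6 Mb from it.

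There were 6 runs of 3 or more rows within 20 kb of each other. In 5 of them the tested rows had log2 fold changes of 1 sign: all 3 were below 0 from AT2G12440.1 to AT2G12460.1 and from AT3G13250.1 to AT3G13270.1, and both tested rows were above 0 from AT2G07767.1 to AT2G07685.1 and from AT5G34790.1 to AT5G34810.1. Of these 4 runs AT2G12440.1 was the only called row. On chromosome 4, the 5 tested rows of the run from AT4G08109.1 to AT4G08110.1 all had log2 fold changes below 0, from −1.61 in AT4G08115.1 to −0.21 in AT4G08110.1, and none was called. In this run wild type replicate 2 was the lowest wild type library in every row, also in CPM. AT4G08100.1, for example, had 12, 125 and 99 counts in wild type and 28, 19 and 36 in *trm5-1*. The run from AT3G21010.1 to AT3G21050.1, 5 rows of which the first is the called row above, went both ways: AT3G21050.1 at its end had 14, 142 and 112 counts in wild type and 24, 15 and 17 in *trm5-1* (log2 fold change −2.13, edgeR adjusted p = 0.0746).

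Undotted genes near the called rows were read from the same fit. Within 20 kb of the 18 called rows there were 87 tested undotted genes near 17 of the rows, and 14 (16.1%, against 11.4% of all rows tested) were called, 9 in the direction of the row and 5 in the other. Within 10 kb it was 10 of 47, 8 of them in the row's direction. Besides AT3G60164 and AT5G28910, the other 8 of the 10 with the smallest p lay near 4 of the called rows. Around AT3G23085.1, AT3G23110 (RLP37) and AT3G23120 (RLP38), which encode receptor-like proteins, rose by 1.85 ± 0.12 and 2.00 ± 0.21 on the log2 scale while AT3G23090 changed by −1.62 ± 0.25 (edgeR adjusted p = 0.0106, 0.0144 and 0.0249). The gene nearest to this row, AT3G23080, 434 bases away on the same strand, was lower as the row was (−1.35 ± 0.32, adjusted p = 0.0471). It was named after its value was seen. Near AT3G60170.1, AT3G60130 (BGLU16) was lower (log2 fold change −1.33 ± 0.14, adjusted p = 0.0144) and AT3G60190 higher (0.71 ± 0.15, adjusted p = 0.0396). Near AT3G10100.1, which rose, AT3G10080 and AT3G10060 were lower at −2.52 ± 0.37 and −1.38 ± 0.27 (adjusted p = 0.0245 and 0.0351). AT5G23910, near AT5G23955.1, was lower at −3.67 ± 0.68 (adjusted p = 0.0321). The largest fold change of the 14 was that of AT5G23940 near the same row, −5.65 ± 1.34 (adjusted p = 0.0471), named after its value was seen; its wild type level was 33.5 ± 30.3 CPM. Over all 166 tested rows, the nearest tested undotted gene had the same sign of change in 98 (59.0%), at a median distance of 956 bases; the rows and genes share their libraries, so this is a description.

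Genes of the pathways that set transposable element silencing were read for 38 listed genes, all tested. The list, called silencing genes below, also holds ROS1 and DME, which remove DNA methylation, and IBM1, which keeps it off genes. The counts that follow cover both kinds. By edgeR 4 were lower and 1 higher in *trm5-1*, where 7.15% and 4.30% of all rows tested were, and 26 of the 38 had a log2 fold change below 0, with a median of −0.23 against −0.00 over all rows. MET1 had 400, 1605 and 1161 counts in wild type and 278, 145 and 258 in *trm5-1* (log2 fold change −2.18, adjusted p = 0.0312). VIM3, which helps MET1 find its sites, had 47, 450 and 281 against 32, 20 and 39 (−2.99, adjusted p = 0.0378). CMT3 and CMT2, the non-CG methyltransferases, had log2 fold changes of −1.18 and −0.60 (adjusted p = 0.0384 and 0.0433). DDM1 had 120, 699 and 454 counts against 138, 33 and 126 (−2.0, adjusted p = 0.0909) and did not pass the test. IBM1, a histone demethylase that keeps this methylation off genes, was the 1 listed gene called higher. It had 413, 794 and 778 counts against 1023, 1541 and 1384 (0.87, adjusted p = 0.0244). For MET1, VIM3, CMT3 and DDM1, wild type replicate 2 was the lowest wild type library, also in CPM. Without replicate 4 of both genotypes edgeR called none of the 38 genes and 0 of all 19255 rows tested. There 4 of the 38 had an unadjusted p under 0.05, against 8.94% of all rows.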

How the data were processed

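Leaf RNA-seq libraries of 20-day-old wild type (n = 3) and *trm5-1* (n = 3) plants were analysed; the 6 tRNA libraries were not used here. Per the study's methods the authors trimmed reads with Trim Galore 0.4.2, aligned them with STAR 2.5.3 to TAIR10 and made counts per gene with featureCounts, whose strand and multi-mapping settings are not given in the sources used here; the deposited counts are not normalized. The deposited normalized values, used in 1 alternative, are a signal scaled by the authors with DESeq2. How reads of repeated elements were counted can change the level of rows with near-identical copies.

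Rows were chosen by a sum of at least 30 counts. The rows, gene lists and rules were chosen with earlier results of these data known. Named rows are all called rows, rows counted in 1 genotype only, the 10 with the highest mean CPM, 2 on either side of the threshold, the 10 called undotted genes within 20 kb with the smallest p, called silencing genes plus MET1, DDM1 and CMT3, and *TRM5*; exceptions are stated.

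The test on counts, over all rows, was that of edgeR 4.0.16 under R 4.3.3 (filterByExpr, TMM, glmQLFit, glmQLFTest, 2 genotypes, no covariate), with Benjamini-Hochberg adjustment over 19408 rows. CPM used TMM library sizes and summed levels used library totals. Fold changes are on the log2 scale with SE, CPM values are mean ± SD. The common biological coefficient of variation was 34.4%. The study calls the libraries biological replicates. The labels do not say which plants entered each, and the tests take the libraries as independent. On counts drawn with known changes in the 19408 rows, edgeR recovered 43 of 100 rows changed by 1.5 on the log2 scale and 100 of 100 changed by 3, with 7 false calls. The draw used 1 dispersion for all rows and independent libraries, at the levels of all rows tested. Recovery among the dotted rows, which are lower in level, was not measured. Alternatives were DESeq2 1.42.0, limma 3.58.1 on log2(normalized value + 1), other scalings and filters, a replicate block and each library left out. TAIR10.1 shares the nuclear coordinates of TAIR10; chromosome lengths were checked. Other copies and repeats were found with blastn 2.17.0. Figures used matplotlib 3.10.9. Columns with the authors' own comparisons were not used.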

Additional observations from a re-analysis of the deposited data

How the results depend on the processing

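The counts of called rows depended most on which libraries entered. With 1 library left out, or replicate 4 of both genotypes, the rows called lower ranged from 0 to 39 and those called higher from 0 to 22 (8 and 10 in the full fit), called rows on chromosome 3 from 0 to 19 (7), silencing genes called lower from 0 to 12 (4) and higher from 0 to 2 (1), and called undotted genes within 20 kb from 0 to 42 (14). All these counts were 0 without replicate 4 of either genotype, where edgeR called 0 rows of the whole table. They were highest without wild type replicate 2, and the cause was not tested. DESeq2 called 24 rows lower, 18 higher and 16 on chromosome 3, 8 silencing genes lower and 2 higher, and 24 nearby genes. At least 10 counts in every library gave 4 rows called lower, and no filter on low counts gave 5. Of the 8 rows called lower in the full fit, only AT1G20390.1, AT5G23955.1 and AT5G28913.1 had 10 or more counts in every library. The 4 therefore include a row outside the 8. These filters change which rows are tested, and their part in the counts was not tested. With a log2 fold change beyond 1 also asked, 0 silencing genes were higher. Within 50 kb 26 nearby genes were called. At least 30 counts in the other genotype left 2 rows counted in 1 genotype only, and bins of 2 Mb gave 2 bins with 2 called rows against 0. The summed difference of 77.3 ranged from −9.71 to 159 with 1 library left out. *TRM5* ranged from −2.42 to −2.03 on the log2 scale with 1 library left out and was −2.24 without replicate 4 of both genotypes, past the threshold only without wild type replicate 2 or 3 among these fits. Over the 18 called rows, 117 of 242 alternative values kept their side of the threshold, 125 lost it and 0 changed direction. Rows that were not called and near 0 changed sign: AT2G12490.1 went from 0.0054 to −0.00033 (at least 10 counts), −0.0021 (limma), −0.012 (replicate block), −0.11 (upper quartile) and −0.14 to 0.14 (1 library left out), AT5G55896.1 from 0.06 to −0.061 (upper quartile) and −0.0084 to 0.13 (1 library left out), and AT1G35115.1 from −0.05 to a range of −0.16 to 0.10.

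The replicate numbers did not pair the libraries: deviations of same-numbered libraries from their genotype means correlated at −0.02, 0.00031 and 0.07 over 19408 rows, and not every library correlated best with its own number. With the replicate block edgeR called 0 of all 19408 rows tested. That is 0 dotted rows lower and 0 higher, 0 on chromosome 3, 0 silencing genes lower and 0 higher and 0 nearby genes. An unadjusted p under 0.05 was seen in 32 of 166 dotted rows (19.3%), against 27.1% of all rows. *TRM5* stayed at −2.25 with an edgeR adjusted p of 0.110. Counts limit rows near the threshold of 30, where 47 rows could not be tested.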
